A study of Mus musculus with 24 samples.

Results

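Cathepsin protease genes were followed across the cell types of mouse pancreatic tumors: *Ctsb*, *Ctsc*, *Ctsd*, *Ctsh*, *Ctsk*, *Ctsl*, *Ctss*, *Ctsw* and *Ctsz*. They are the 9 of 32285 genes in the count matrix whose symbols were chosen for this family. All 9 had UMIs (unique molecular identifiers, each of which marks 1 captured RNA molecule) in the cells kept. Panc02, a mouse pancreatic cancer line, was grown under the skin of the flank of wild-type male C57BL/6 mice of 6 to 7 weeks, so every group shares the implanted line. The 8 treatments were PancVAX + Anti-PD-1 + Anti-CTLA-4, PancVAX + Anti-PD-1, PancVAX + Anti-CTLA-4, PancVAX, Anti-PD-1, Anti-CTLA-4, Anti-PD-1 + Anti-CTLA-4 and Isotype Control. PancVAX is a vaccine of tumor neoantigen peptides (on days 12 and 19) given with the adjuvant AddaVax and an agonist of STING, and the parts of the peptides and of the adjuvants in its effect cannot be told apart. Anti-CTLA-4 was given at 100 ug on days 15 and 22 and Anti-PD-1 at 100 ug 2 times a week from day 12. Isotype antibodies stood in where an antibody was absent, and tumors were taken on day 38.

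Tumors of a treatment were pooled. Each treatment gave a whole-tumor library, made from the full cell suspension, and a Percoll library, made after a density gradient that enriches immune cells. The 16 libraries held 77132398 to 176233225 UMIs. The UMIs of both libraries of a treatment were summed into a pool, since both may hold cells of the same mice. Of 144994 barcodes 57355 were kept. Cells were placed in gates by the marker genes they expressed, with 14490 cells in the macrophage gate, 760 in the dendritic, 8162 in the neutrophil, 871 in the stromal, 2605 in the tumor and 9846 in the CD8 T gate. No cathepsin is a marker of a gate. Upper limits on genes and UMIs left 69.4% of macrophage, 47.6% of dendritic, 16.9% of stromal and 13.0% of tumor cells, so the stromal and tumor values are those of cells with few UMIs for their type. The Percoll library of PancVAX + Anti-PD-1 stood apart, with 61.9% of its barcodes kept against 31.2% to 47.2% in the others. Pairs of libraries shared 5 to 45 cell barcodes.

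Cathepsins are proteases of the lysosome and endosome, made as inactive proenzymes that mature as the compartment acidifies. *Ctsd* encodes an aspartic protease and the other members encode cysteine proteases of the papain fold. In tumors they are known for matrix breakdown around macrophages and stromal cells, for antigen processing, and, through cathepsin C, for the activation of granzymes in cytotoxic lymphocytes.

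In GRCm38.p6 *Ctsb* lies on chromosome 14, *Ctsc* and *Ctsd* on 7, *Ctsh* on 9, *Ctsl* on 13, *Ctsw* on 19 and *Ctsz* on 2. *Ctsk* (chr3:95499210-95509387) and *Ctss* (chr3:95526786-95556405) lie close together on chromosome 3, 17398 bases apart with 1 listed gene between them. Their upstream regions are shown because these nearby genes had their highest levels in different gates, *Ctsk* in the stromal and *Ctss* in the macrophage gate. That of *Ctsd* is shown because it holds CACGTG at 2 positions. The sequences are from RefSeq, which gave promoter sequence for 6 of the 9 members. Each is the 250 bases before the gene's start, 5′ to 3′ on the gene's strand, at chr3:95498960-95499209 (plus strand), chr3:95526536-95526785 (plus strand) and chr7:142387828-142388077 (minus strand). Capitals mark motifs searched on both strands: CACGTG, a palindromic E-box that lysosomal regulators of the TFEB family are known to bind, and GAGGAA, a core known for the myeloid factor PU.1, with its reverse complement TTCCTC.
Ctsk: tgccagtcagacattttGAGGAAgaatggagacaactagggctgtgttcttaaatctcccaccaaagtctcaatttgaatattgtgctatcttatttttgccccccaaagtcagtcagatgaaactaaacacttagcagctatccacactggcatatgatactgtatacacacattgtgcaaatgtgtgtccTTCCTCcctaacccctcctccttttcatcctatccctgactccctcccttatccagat
Ctss: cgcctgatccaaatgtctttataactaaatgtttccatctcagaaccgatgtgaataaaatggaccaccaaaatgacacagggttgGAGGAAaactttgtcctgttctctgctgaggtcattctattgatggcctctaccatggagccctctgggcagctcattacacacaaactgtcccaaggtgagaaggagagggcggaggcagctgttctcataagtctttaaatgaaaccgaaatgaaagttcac
Ctsd: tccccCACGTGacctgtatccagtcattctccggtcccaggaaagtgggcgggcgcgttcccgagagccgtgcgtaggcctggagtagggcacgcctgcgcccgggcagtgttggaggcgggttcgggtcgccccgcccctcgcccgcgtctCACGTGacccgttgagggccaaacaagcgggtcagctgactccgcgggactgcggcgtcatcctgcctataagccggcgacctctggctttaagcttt
CACGTG was in 6.02% and GAGGAA in 23.3% of 32851 upstream windows of this length. CACGTG began 245 and 98 bases before the start of *Ctsd*. GAGGAA or its complement began 233 and 58 bases before *Ctsk* and 164 before *Ctss*, and neither motif was in the window of *Ctsz*. In the RefSeq promoter table CACGTG was also in the window of *Ctsl*, at 1 position, and GAGGAA in that of *Ctsc*, at 2. No distance is given for them, since the window of *Ctsl* lies inside the listed gene and that of *Ctsc* reaches into it. These are matches of letters, and no binding was measured.

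The macrophage gate held the highest level of *Ctsb*, *Ctsc*, *Ctsd*, *Ctsh*, *Ctss* and *Ctsz* among the 6 gates. Of these gates *Ctsl* was highest by CPM in the stromal and tumor gates, *Ctsk* in the stromal and *Ctsw* in the CD8 T gate. Levels are UMIs of a gene per 1000000 UMIs of a gate in a pool (CPM), as mean ± SD over 8 pools or as the range of pools, and compare gates for 1 gene. Gates were put in order for each member by their mean log2(CPM + 1) over pools, and neighbors in that order were compared on summed UMIs with edgeR (quasi-likelihood test, TMM scaling, pool as a block, Benjamini-Hochberg over 12131 genes). A difference was called at an adjusted p below 0.05 and a log2 difference above 0.5 in size, and log2 differences are given ± SE. Of 45 neighboring pairs 28 were called. Gates differ in many genes. Between macrophage and another gate 36.4% (dendritic), 56.3% (neutrophil), 60.1% (CD8 T), 61.4% (stromal) and 61.7% (tumor) of all genes were called. For the dendritic gate the share was 48.2% against CD8 T, 50.4% against neutrophil, 59.6% against tumor and 60.7% against stromal. For the neutrophil gate it was 63.9% against CD8 T, 68.9% against stromal and 71.2% against tumor. For the CD8 T gate it was 65.2% against tumor and 66.4% against stromal, and stromal against tumor had 19.5%. Scaling by library totals moved the median difference of all genes by up to 0.66 from that under TMM, so a fitted difference can depart from the ratio of CPM values. In 5 pairs its sign went against the order of the gates, and 1 of these was called.

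**Figure D1:**
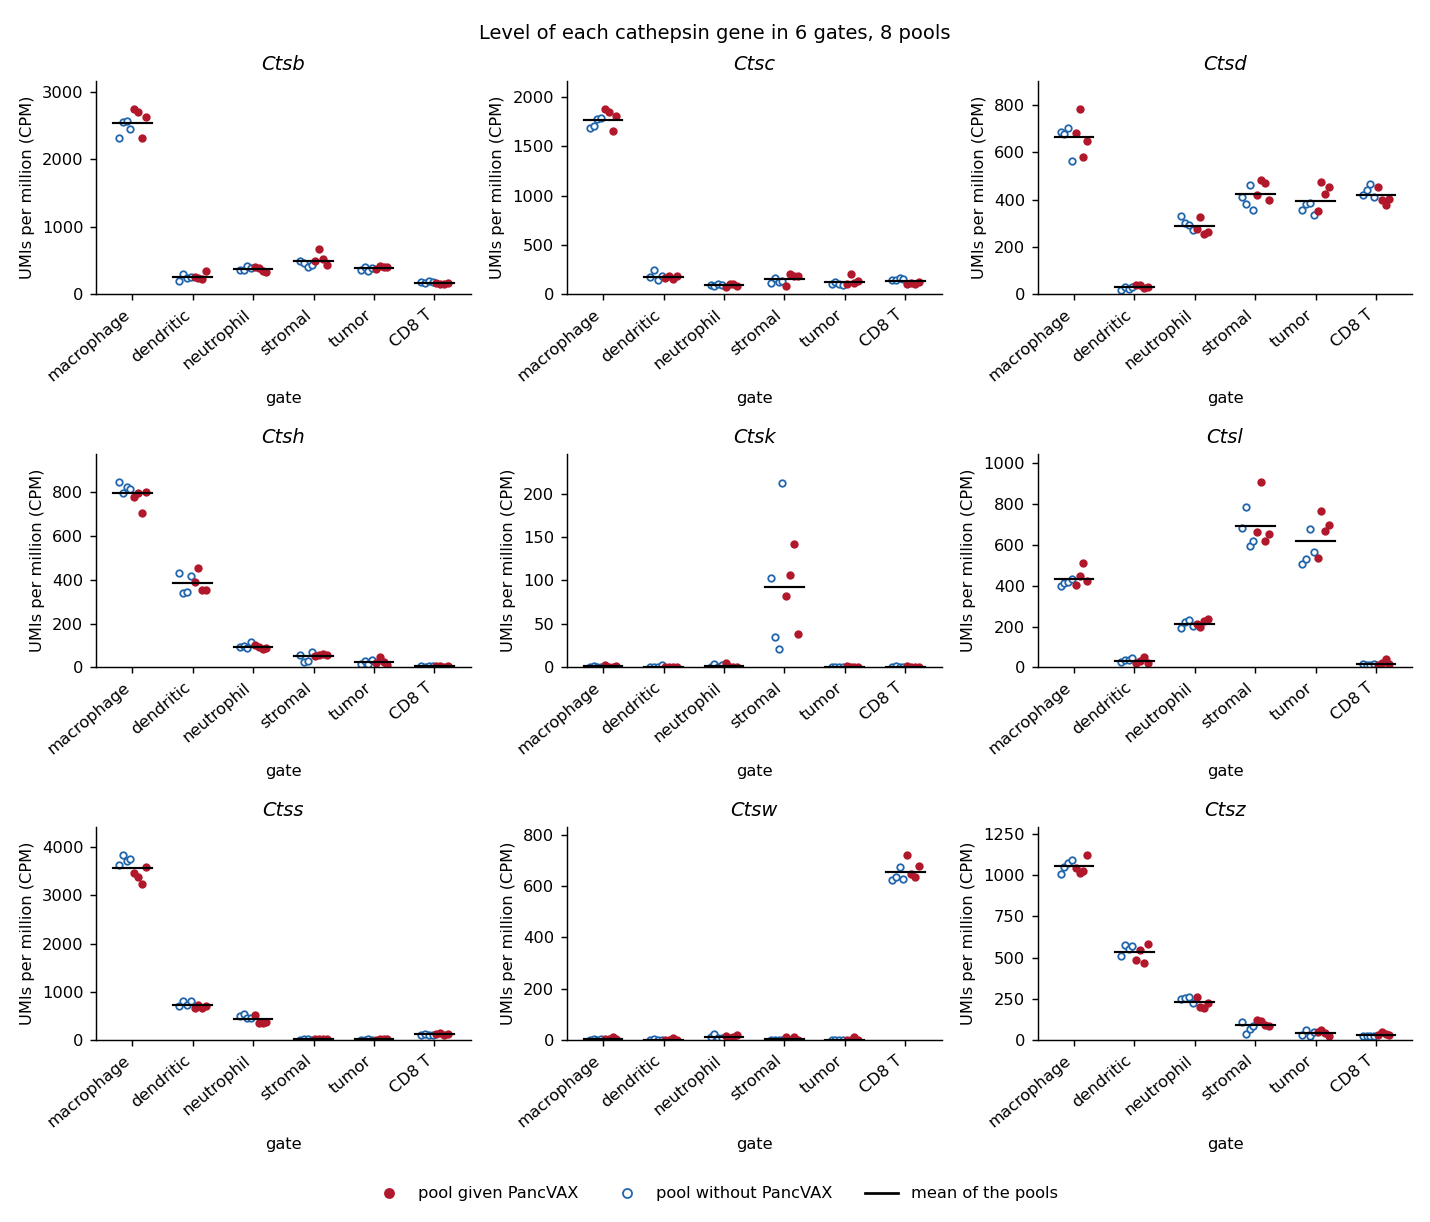
Level of each cathepsin gene in 6 gates, in CPM (linear axes from 0), with filled points for the 4 pools given PancVAX, open points for the 4 without, and a line at the mean. All macrophage pools lie above all other pools for *Ctss* (3227 to 3824 CPM), as do all stromal pools for *Ctsk* (21.6 to 213) and all CD8 T pools for *Ctsw* (624 to 719).

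*Ctss* encodes the protease that makes the last cut of the invariant chain in many antigen-presenting cells. Its lowest, median and highest macrophage pools were at 3227, 3605 and 3824 CPM. Dendritic pools lay at 662, 717 and 816, and neutrophil pools at 350.5, 452 and 531. These 3 gates did not overlap. Macrophage exceeded dendritic by 2.27 ± 0.13 (edgeR adjusted p = 6.0e-20), dendritic exceeded neutrophil by 0.61 ± 0.13 and neutrophil exceeded CD8 T (120.1 ± 13.2 CPM) by 2.09 ± 0.13. CD8 T exceeded stromal (17.9 ± 8.47 CPM) by 3.11 ± 0.19. The stromal and tumor (13.7 ± 6.51 CPM) gates did not pass the test against each other (0.24 ± 0.24). The macrophage gate held 88.5% of the *Ctss* UMIs of kept cells.

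*Ctsl*, an endopeptidase that makes the same cut in thymic epithelium, had another order. Stromal pools ranged from 596 to 907 CPM (median 657), tumor pools from 505 to 769 (median 617) and macrophage pools from 399 to 513 (median 422). All stromal pools were above all macrophage pools, and the tumor pools overlapped both. In the stromal gate *Ctsl* was at 111.6% of its tumor level and the summed markers of the tumor gate at 27.1% of theirs. The part of tumor cell RNA in stromal *Ctsl* was not tested. Under TMM these gates did not pass the test, at 0.07 ± 0.12 for stromal minus tumor and 0.08 ± 0.12 for tumor minus macrophage, whereas with library totals macrophage minus stromal was -0.68 and macrophage minus tumor -0.52. Macrophage exceeded neutrophil (214 ± 16.6 CPM) by 0.87 ± 0.12, and neutrophil exceeded dendritic (33.1 ± 11.1 CPM) by 2.79 ± 0.18. Dendritic exceeded CD8 T (18.6 ± 8.98 CPM) by 0.96 ± 0.21, and without upper limits on genes and UMIs that difference was -0.10. Outside the 6 gates, plasmacytoid dendritic cells had 2107 ± 321 CPM over the 5 pools with at least 10 of them.

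*Ctsb*, which cuts within proteins and also removes dipeptides from their carboxyl end, had macrophage pools at 2314, 2559.9 and 2739 CPM (lowest, median and highest). The stromal gate had 489 ± 85.2, tumor 390.3 ± 25.0, neutrophil 378 ± 33.1, dendritic 259 ± 43.8 and CD8 T 176 ± 14.8 CPM. No macrophage pool overlapped another of the 6 gates, and macrophage exceeded stromal by 2.91 ± 0.09 (edgeR adjusted p = 3.4e-31). Neutrophil exceeded dendritic by 0.66 ± 0.09 and dendritic exceeded CD8 T by 0.65 ± 0.09. Stromal minus tumor was 0.22 ± 0.08, short of the size. Outside the 6 gates, plasmacytoid dendritic cells had 1829 to 2317 CPM in 5 pools, which overlapped the lowest macrophage pool. The fitted tumor minus neutrophil difference was -0.53 ± 0.08, against the CPM order, and it was called in 10 of 18 alternatives.

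Among the exopeptidases, *Ctsc* encodes the dipeptidyl peptidase that activates serine proteases of cytotoxic and neutrophil granules. Macrophage pools were at 1659, 1780.3 and 1876 CPM, and dendritic pools at 150.3, 179 and 251. Macrophage pools stood clear of all others and exceeded dendritic by 3.28 ± 0.12 (edgeR adjusted p = 1.8e-27). Neighbors among the remaining gates overlapped, where stromal had 152 ± 40.6, CD8 T 135 ± 21.8, tumor 124 ± 37.6 and neutrophil 96.1 ± 11.5 CPM. Stromal minus CD8 T was -0.30 ± 0.12, against the CPM order and not called. Dendritic exceeded stromal by 0.80 ± 0.13, a call lost with library totals (0.23). CD8 T exceeded tumor by 0.50 ± 0.11, called in 7 of 18 alternatives.

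*Ctsh*, an aminopeptidase, was called in all 5 neighboring pairs. Macrophage pools ranged from 705 to 844 CPM (median 799), dendritic from 341 to 454 (median 370.3) and neutrophil from 85.4 to 117 (median 91.0). Stromal pools ranged from 22.2 to 67.9, tumor from 11.0 to 44.9 and CD8 T from 2.88 to 8.09. Among neighbors only the stromal and tumor pools overlapped. The steps in that order were 1.03 ± 0.14, 1.92 ± 0.15, 1.59 ± 0.18, 1.06 ± 0.21 and 1.70 ± 0.21. Plasmacytoid dendritic cells had 1395 ± 119 CPM.

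*Ctsz*, a carboxypeptidase also called cathepsin X, had the same order of gates. Macrophage pools ranged from 1006 to 1122 CPM (median 1048), dendritic from 468 to 581 (median 549) and neutrophil from 194 to 261 (median 237). Stromal pools ranged from 36.2 to 121, tumor from 27.2 to 63.8 and CD8 T from 23.5 to 46.8. The first 3 gates did not overlap each other or the rest. Macrophage exceeded dendritic by 0.95 ± 0.14, dendritic exceeded neutrophil by 1.09 ± 0.14, neutrophil exceeded stromal by 2.08 ± 0.16 and stromal exceeded tumor by 0.96 ± 0.18. Tumor and CD8 T did not pass the test (0.11 ± 0.16).

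*Ctsd*, the aspartic protease, had macrophage pools at 563, 678 and 779.9 CPM. Stromal pools ranged from 356 to 484, CD8 T from 376 to 466, tumor from 337 to 474 and neutrophil from 255 to 329, and dendritic pools from 20.3 to 41.1. The stromal, CD8 T and tumor pools overlapped, and the dendritic pools lay below all others. Macrophage exceeded stromal by 1.18 ± 0.08 and neutrophil exceeded dendritic by 3.34 ± 0.11 (edgeR adjusted p = 3.4e-29). The pairs from stromal to neutrophil were not called. The first 2 of them passed the p threshold and were short of the size, with fitted differences of -0.46 ± 0.08, 0.46 ± 0.07 and -0.12 ± 0.08. The macrophage gate held 43.1% and the CD8 T gate 17.5% of *Ctsd* UMIs.

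*Ctsk*, a collagen-degrading protease best known from osteoclasts, had 515 of its 789 UMIs in the stromal gate (65.3%). Stromal pools were at 21.6, 92.6 and 213 CPM. Macrophage cells had 64 UMIs, neutrophils and CD8 T cells 19 each, tumor cells 13 and dendritic cells 1. Every stromal pool was above every pool of the other gates, and stromal exceeded neutrophil by 5.43 ± 0.46 (edgeR adjusted p = 1.2e-14). The other neighbors did not pass the test at this depth.

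*Ctsw*, known from NK and CD8 T cells, had 75.9% of its UMIs in the CD8 T gate. CD8 T pools were at 624, 641 and 719 CPM, and the 177 cells of the NK gate at 912 ± 121. The 1294 cells of the CD4 T gate, also outside the 6 gates, were at 278 ± 55.6 CPM (8 pools). Neutrophil pools ranged from 7.98 to 24.5 and macrophage pools from 1.66 to 11.8. All CD8 T pools were above all pools of the other 5 gates, and CD8 T exceeded neutrophil by 5.45 ± 0.26 (edgeR adjusted p = 5.3e-24). The fitted neutrophil minus macrophage difference was 1.82 ± 0.33, between levels that were 2.18% and 0.678% of that in CD8 T cells. The 8 T cell markers, none at 0, stood at 1.38% to 4.11% and 0.529% to 1.13% of their CD8 T level in these gates. *Ctsw* was within the range of these markers in each of the other 5 gates. The markers count against entry to those gates, and whether *Ctsw* was expressed there was not tested. The dendritic, stromal and tumor gates held 10, 18 and 39 UMIs.

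Free RNA gives UMIs in cells that do not express a gene, so low levels were set beside *Lyz2*, *Apoe*, *Pf4*, *Trem2* and *Ms4a6c*, macrophage genes that define no gate. In the CD8 T gate these stood at 0.452% to 1.52% of their macrophage level. *Ctsh* (0.675%) was within that range, and whether it was expressed there was not tested. *Ctsz* (2.92%), *Ctss* (3.36%), *Ctsl* (4.30%), *Ctsb* (6.96%), *Ctsc* (7.62%) and *Ctsd* (63.3%) were above it. *Ctsl* in the CD8 T gate was also set beside tumor cell RNA, at 3.01% of its level in the tumor gate. There the tumor markers summed to 2.49% of their tumor level, but they differed singly. *Cdh1* stood at 115.6%, *Epcam* at 56.3% and *Cldn4* at 9.52%. The keratins *Krt8*, *Krt18*, *Krt7* and *Krt19* stood at 1.93%, 1.59%, 0.625% and 0.572%, *Cldn7* at 1.16% and *Msln* at 0.792%. The part of tumor cell RNA in *Ctsl* was not tested. *Ctss* in the tumor gate (0.385%, against 0.290% to 0.683%) and in the stromal gate (0.501%, against 0.411% to 0.930%) was within the range of those macrophage genes. Whether it was expressed in these gates was not tested. In the neutrophil gate the range was 1.95% to 23.4%, or to 3.70% without *Lyz2*, and *Ctsc* (5.43%), *Ctsh* (11.9%), *Ctss* (12.4%), *Ctsb* (14.9%) and *Ctsz* (22.2%) lay within the wider range and above the narrower. In the dendritic gate it was 0.356% to 28.0%, or to 2.80% without *Ms4a6c*, and *Ctsd* (4.66%), *Ctsl* (7.64%), *Ctsb* (10.2%), *Ctsc* (10.3%) and *Ctss* (20.4%) lay likewise. *Lyz2* and *Ms4a6c* are known from myeloid cells other than macrophages too, and the part of free RNA in these members was not tested.

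The genes around the cathepsins also differed between gates. Of 11 tested genes of the lysosomal membrane and proton pump, 10 were higher in macrophage than in CD8 T cells and 0 lower (list median 2.08, all genes 0.02, with 60.1% of all genes called in either direction). Against neutrophils 2 were higher and 1 lower (median 0.08, all genes -0.04, 56.3% called). The list holds *Cd68*, a macrophage gate marker. *Lamp1*, a main protein of that membrane, was higher in macrophages by 3.23 ± 0.07 against CD8 T cells and 1.67 ± 0.07 against neutrophils.

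Of 6 lysosomal regulators, 5 were higher in macrophage than in CD8 T cells (median 1.55) and 1 than in neutrophils (median -0.12), where 60.1% and 56.3% of all genes were called. *Tfec*, a TFEB relative of myeloid cells, was higher against both (5.94 ± 0.26 and 3.34 ± 0.26). Of 8 processing and sorting genes, 5 were higher and 2 lower against CD8 T cells. *Lgmn*, a protease that processes several cathepsins, was higher in macrophages than in each other gate, from 3.82 ± 0.13 against dendritic to 7.47 ± 0.15 against CD8 T cells, and *Igf2r*, a sorting receptor, was lower (-3.92 ± 0.11 against CD8 T cells).

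Cathepsin inhibitors had no common direction, with 3 of 10 higher and 5 lower in macrophage than in CD8 T cells and 2 higher and 4 lower than in dendritic cells (36.4% of all genes called). *Cst3* (cystatin C) was lower in macrophages than in dendritic cells (-3.57 ± 0.09), *Cst7* (cystatin F) lower than in CD8 T cells (-7.16 ± 0.20) and *Stfa2l1*, a stefin, lower than in neutrophils (-9.30 ± 0.18).

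Within the macrophage gate, 11566 C1q-high cells without *Ccr2*, as in mature tissue macrophages, were compared with 359 *Ccr2*-positive cells with few C1q UMIs, as in cells recently derived from monocytes (median 4101 and 4865 UMIs per cell). *Ctsb* was at 2406 to 3009 CPM in C1q-high and 940.3 to 1579 in *Ccr2*-positive pools. *Ctsc* was at 1765 to 2066 against 823 to 1059.6 and *Ctss* at 3508 to 4017 against 2128 to 2585. The sub-gates did not overlap for these genes, and C1q-high pools were the higher. Of 9 members 6 were called, where 28.4% of all genes were. The differences were 1.07 ± 0.06 for *Ctsb*, 1.04 ± 0.07 for *Ctsc*, 0.80 ± 0.06 for *Ctss*, 0.77 ± 0.07 for *Ctsz*, 0.74 ± 0.08 for *Ctsd* and 0.74 ± 0.08 for *Ctsh*, each called in 16 of 16 alternatives. *Ctsl* had 0.25 ± 0.10, short of the size. *Ctsk* (-1.03 ± 0.98) and *Ctsw* (-0.68 ± 0.63) did not pass the test.

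**Figure D2:**
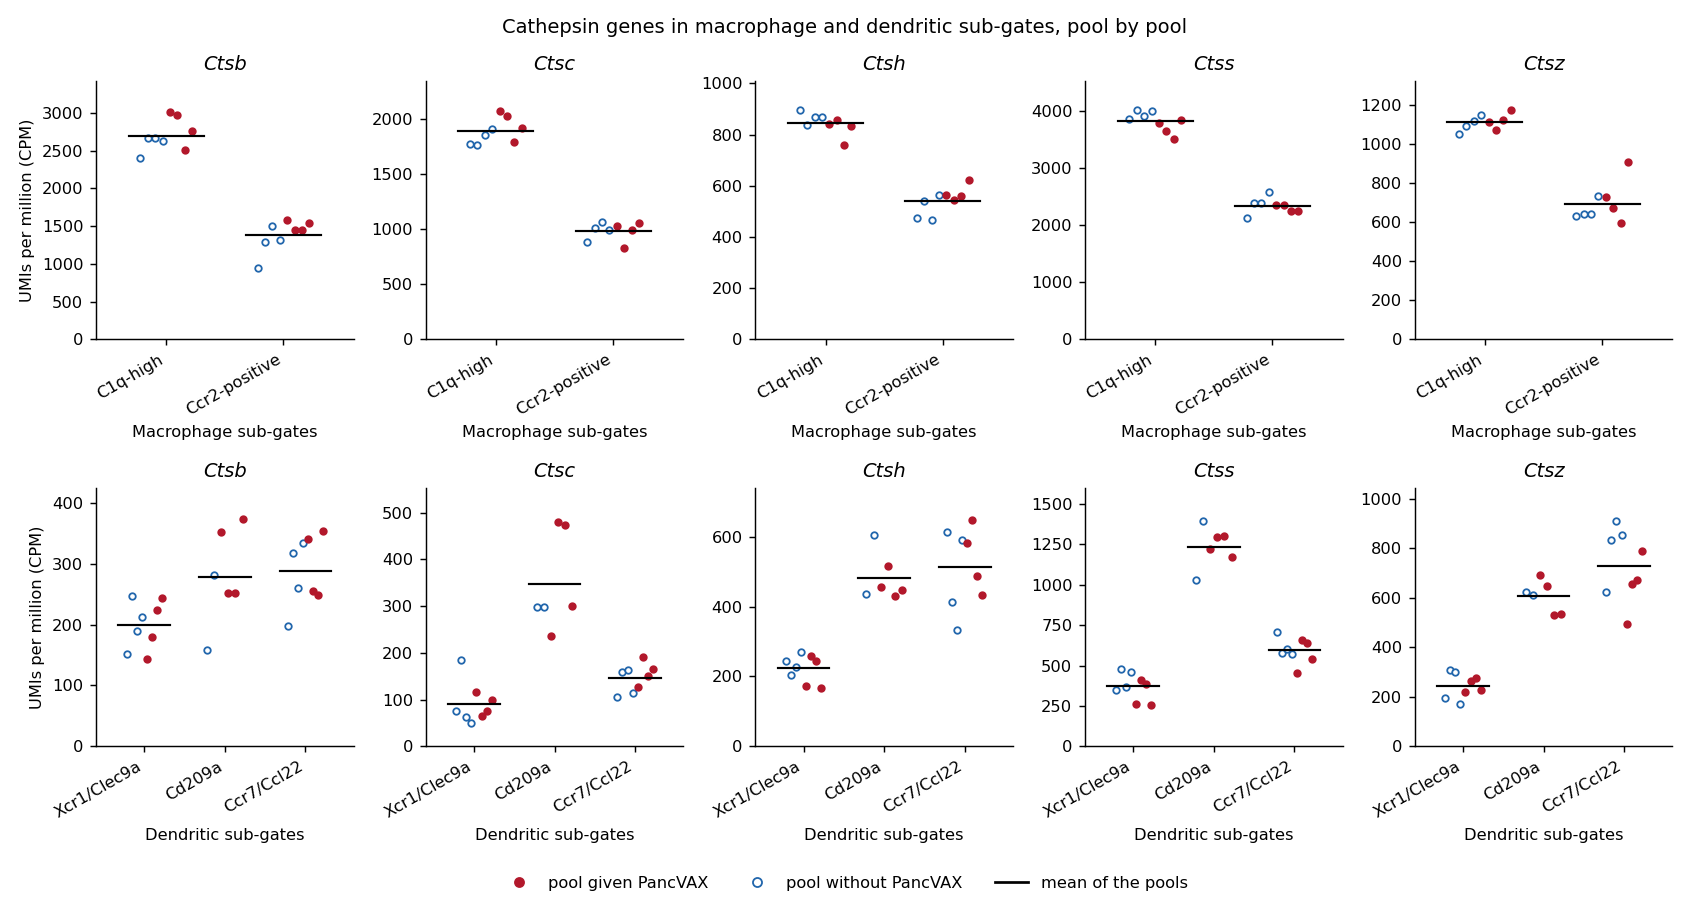
Levels of 5 cathepsin genes in macrophage sub-gates (upper panels) and dendritic sub-gates (lower panels), in CPM (linear axes from 0), with filled points for pools given PancVAX, open points for pools without, and a line at the mean. *Ctsb* lies at 2406 to 3009 CPM in C1q-high against 940.3 to 1579 in *Ccr2*-positive macrophage pools, and *Ctss* at 1030.5 to 1397 in *Cd209a* against 454 to 711 in *Ccr7* or *Ccl22* dendritic pools.

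In the same cells 5 of 8 processing and sorting genes were higher in C1q-high and 1 lower, where 28.4% of all genes were called (median 0.59, all genes 0.19), with *Lgmn* at 1.50 ± 0.07 and *Psap*, the saposin precursor, at 0.55 ± 0.06. Of 8 substrates and clients 5 were higher and 1 lower (median 0.98). *Cd74*, the invariant chain, had 1.43 ± 0.05 and *H2-Ab1* of MHC class II 1.50 ± 0.06, while *Prtn3*, a neutrophil granule protease, had -5.28 ± 0.40. Of 8 inhibitors 3 were higher and 2 lower, *Cstb* among the latter (-0.62 ± 0.08). Of 6 lysosomal regulators 0 were called by edgeR, with 1 at an unadjusted p below 0.05, where 4510 of all 11093 genes were.

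The dendritic gate held 281 cells with *Xcr1* or *Clec9a* (conventional type 1 markers), 98 with *Cd209a* (a type 2 marker, with values from the 6 pools that held at least 10 of these cells) and 228 with *Ccr7* or *Ccl22* (markers of mature, migrating cells), and 5 members could be tested. *Ctss* was at 258 to 482 CPM in *Xcr1* or *Clec9a*, 1030.5 to 1397 in *Cd209a* and 454 to 711 in *Ccr7* or *Ccl22* pools. The *Cd209a* pools were above all others, by 0.98 ± 0.13 over *Ccr7* or *Ccl22* cells, and *Xcr1* or *Clec9a* minus *Cd209a* was -1.74 ± 0.14. *Ctsc* had means of 90.9 ± 43.4, 347 ± 103 and 147 ± 29.1 CPM in that sequence, and *Cd209a* exceeded *Ccr7* or *Ccl22* cells by 1.12 ± 0.21.

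*Ctsz* and *Ctsh* were lowest in *Xcr1* or *Clec9a* cells. *Ctsz* was at 245 ± 49.6 CPM there, 607 ± 63.0 in *Cd209a* and 729.7 ± 139.7 in *Ccr7* or *Ccl22* cells, and *Ctsh* at 224 ± 38.8, 482 ± 67.7 and 512 ± 112. Against *Cd209a* cells the differences were -1.27 ± 0.16 and -1.06 ± 0.17, and against *Ccr7* or *Ccl22* cells -1.62 ± 0.14 and -1.24 ± 0.14. *Cd209a* minus *Ccr7* or *Ccl22* did not pass the test for either (-0.34 ± 0.15 and -0.18 ± 0.16). In all, 4 of 5 members were called between *Xcr1* or *Clec9a* and *Cd209a* cells (28.2% of all genes), 5 between *Xcr1* or *Clec9a* and *Ccr7* or *Ccl22* cells (58.9%) and 2 between *Cd209a* and *Ccr7* or *Ccl22* cells (47.8%).

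Among neutrophils, 2056 cells with *Siglecf*, a gene of neutrophils resident in tumors, were compared with 1213 with *Retnlg*, common in circulating neutrophils. *Ctsd* was at 171 to 225 CPM in *Siglecf* and 305 to 519.7 in *Retnlg* pools. The *Retnlg* pools were all higher, and the difference was -1.46 ± 0.10 (-1.51 to -0.67 over the alternatives, all called). *Ctsw* was at 5.95 ± 8.35 CPM in *Siglecf* and 26.6 ± 18.2 in *Retnlg* cells, on 21 and 63 UMIs (-2.70 ± 0.55). The part of T cell RNA in *Ctsw* was not tested. *Ctsd* and *Ctsw* were the 2 called of 8 members, where 40.6% of all genes were called. *Ctsl* was higher in *Siglecf* cells in 8 of 8 pools (0.37 ± 0.12), short of the size under TMM and called with library totals (0.79). Counting it, the 6 members not called under TMM (*Ctsz*, *Ctss*, *Ctsc*, *Ctsh*, *Ctsl* and *Ctsb*) had differences from -0.35 to 0.37.

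Among CD8 T cells, 5344 with a UMI of *Pdcd1*, which encodes PD-1, were compared with 4502 without (median 4521.5 and 3408.5 UMIs per cell). *Ctsz* was at 26.4 ± 6.94 CPM in *Pdcd1*-positive and 38.0 ± 7.73 in *Pdcd1*-negative cells, lower in 8 of 8 pools (-0.58 ± 0.08). *Ctsl* was also lower in 8 of 8, at 15.2 ± 6.33 against 23.6 ± 11.6 (-0.69 ± 0.12). *Ctsc* was higher in 8 of 8, at 153 ± 19.7 against 104 ± 18.3 (0.50 ± 0.06, called in 7 of 16 alternatives). These were 3 of 8 members, where 11% of all genes were called. Of the other 5, *Ctsb* (0.39 ± 0.06) and *Ctsd* (0.37 ± 0.06) were higher in 8 of 8 pools and *Ctss* (-0.34 ± 0.07) lower in 8 of 8, all short of the size. *Ctsh* had -0.15 ± 0.22 and *Ctsw* 0.12 ± 0.05. *Lyz2* (-0.62 ± 0.17) and *Ms4a6c* (-0.94 ± 0.14), known from macrophages and other myeloid cells, were lower in *Pdcd1*-positive cells too. The part of macrophage or other myeloid RNA in *Ctsz* and *Ctsl* was not tested. Of 8 inhibitors 4 were higher in *Pdcd1*-positive cells, *Cst7* among them (0.71 ± 0.06), and 0 lower.

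PancVAX was tested with 4 pools against 4 and both antibodies as covariates. Of 47 tests of a member in a gate 1 was called, against 2.32% of all gene-by-gate tests. This was *Ctsz* in the CD8 T gate, where 11.6% of genes were called. In the stromal and tumor gates 0.1% and 0.00983% of genes were called, and 0% in the dendritic and neutrophil gates. Members not called had log2 fold changes from 0.02 to 0.61 in the stromal (8 members), 0.06 to 0.63 in the tumor (7), -0.20 to 0.34 in the dendritic (7) and -0.33 to 0.09 in the neutrophil gate (8). *Ctsz* was at 34.0 CPM with PancVAX, 46.8 with PancVAX + Anti-CTLA-4, 35.6 with PancVAX + Anti-PD-1 and 32.9 with all agents. It was at 25.1 in Isotype Control, 23.5 with Anti-PD-1, 25.0 with Anti-CTLA-4 and 23.5 with both antibodies. Each vaccinated pool was above each other pool, and the highest was the one with Anti-CTLA-4 added. The log2 fold change was 0.55 ± 0.10 (edgeR adjusted p = 0.0031). It fell short of the size without the PancVAX + Anti-CTLA-4 pool (0.43) and without upper limits on genes and UMIs (0.45), and 16 of 18 alternatives called it.

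**Figure D3:**
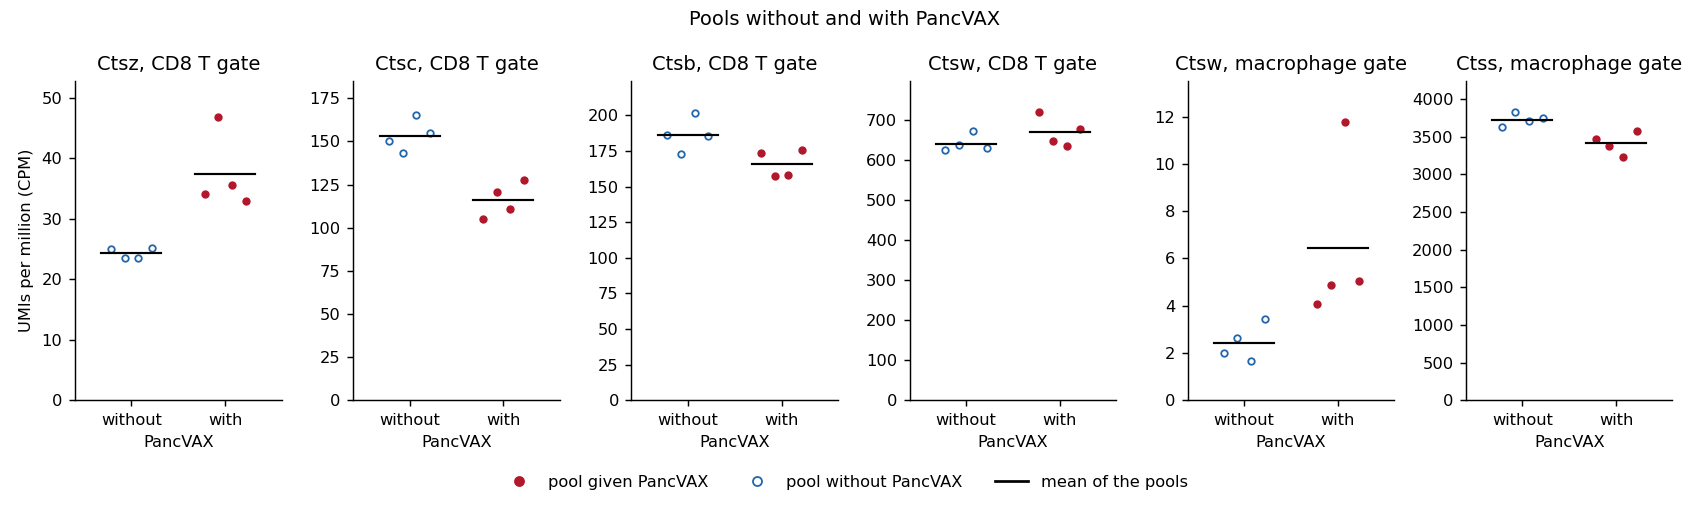
Pools without PancVAX (open points) and with it (filled points), in CPM (linear axes from 0), with a line at the mean of the 4 pools. In CD8 T cells *Ctsz* lies at 32.9 to 46.8 CPM with against 23.5 to 25.1 without PancVAX and *Ctsc* at 105 to 127 against 143 to 165, and the *Ctsw* pools overlap.

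*Ctsc* in CD8 T cells was at 105 CPM with PancVAX, 121 with PancVAX + Anti-CTLA-4, 111 with PancVAX + Anti-PD-1 and 127 with all agents. Without PancVAX it was at 155 in Isotype Control, 143 with Anti-PD-1, 150.3 with Anti-CTLA-4 and 165 with both antibodies. Each vaccinated pool was below each other pool. The log2 fold change was -0.47 ± 0.06 (edgeR adjusted p = 3.2e-04), past the p threshold and short of the size. *Ctsb* had -0.24 ± 0.07 (edgeR adjusted p = 0.03), and *Ctsw* had -0.01 ± 0.06 with overlapping pools of 635 to 719 and 624 to 673 CPM. *Ctsl*, at 0.58 ± 0.28 (edgeR adjusted p = 0.17), was not called, nor were *Ctss* (0.13 ± 0.08), *Ctsd* (-0.17 ± 0.07) and *Ctsh* (-0.14 ± 0.31). Of 135 tests of whether the PancVAX effect on a member differed between 2 of the 6 gates (15 pairs), 2 were called, against 0.837% of such tests over all genes (edgeR, one fit). Both were for *Ctsc*: tumor minus CD8 T was 0.81 ± 0.18 (adjusted p = 0.0066, 1.47% of genes called) and stromal minus CD8 T 0.71 ± 0.19 (edgeR adjusted p = 0.039, 1.88%).

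The make-up of the CD8 T gate moved with PancVAX. *Pdcd1*-positive cells were 43.5% to 52.6% of it in vaccinated and 62.4% to 70.9% in other pools. In *Pdcd1*-positive cells *Ctsz* was at 29.5 to 38.6 against 19.4 to 23.1 CPM (0.57 ± 0.12, edgeR adjusted p = 0.0066, 9% of genes called), and in *Pdcd1*-negative cells at 37.7 to 54.7 against 30.2 to 37.1 (0.28 ± 0.14, edgeR adjusted p = 0.21, 9.13%). *Ctsc* had -0.37 ± 0.08 and -0.46 ± 0.10 in them. The 9 macrophage markers, none at 0, summed to 112 to 145 CPM in the CD8 T gate with and 105 to 126 without PancVAX. By edgeR 0 of 4 tested macrophage genes were called and 0 had an unadjusted p below 0.05, *Lyz2* at 0.53 ± 0.28 and *Apoe* at 0.14 ± 0.18. The sums of 3 other marker lists did not overlap between these pools. The 9 neutrophil markers summed to 169.5 to 211 CPM with and 67.0 to 79.5 without it, the 9 tumor markers to 69.6 to 111 and 41.6 to 67.9, and the 8 T cell markers to 4476 to 4944 and 5459.8 to 5789, with none of these markers at 0. The T cell list is that of the gate itself. Among the tumor markers *Cdh1* and *Epcam* had means of 21.1 and 7.09 CPM in the CD8 T gate, 115.6% and 56.3% of their tumor level. The part of neutrophil, tumor or macrophage RNA in the *Ctsz* and *Ctsc* differences was not tested.

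In the macrophage gate edgeR called 0 of 9 members and 0.0169% of genes. By the same test 3 members had an unadjusted p below 0.05, as did 2108 of all 11819 genes tested there. *Ctss* was at 3227 to 3581 CPM with and 3628 to 3824 without PancVAX. These pools did not overlap, and the log2 fold change was -0.20 ± 0.06 (edgeR adjusted p = 0.13). The macrophage markers themselves summed to 16774 to 19125 CPM with and 19201 to 20468 without PancVAX in this gate, and the 9 neutrophil markers, none at 0, to 319 to 431 and 226 to 260.1. Their part in *Ctss* was not tested. Within C1q-high cells *Ctss* had -0.15 ± 0.06 (edgeR adjusted p = 0.31, 0% of genes called). *Ctsh* had -0.16 ± 0.05 (edgeR adjusted p = 0.17). *Ctsk*, on 64 UMIs, had 1.12 ± 0.62 (edgeR adjusted p = 0.39), and *Ctsz*, *Ctsc*, *Ctsd*, *Ctsl* and *Ctsb* had from -0.07 to 0.03. *Ctsw* was at 4.08 to 11.8 CPM with and 1.66 to 3.44 without PancVAX (1.30 ± 0.30, edgeR adjusted p = 0.092), and it was called with DESeq2 (1.30) and without the PancVAX pool (1.62). The 8 T cell markers, none at 0, summed to 26.2 to 81.4 CPM in that gate with and 14.0 to 31.7 without PancVAX, and their part in *Ctsw* was not tested. In summed UMIs, fewer cells with a gene and less of its RNA per cell cannot be told apart.

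Of the partner genes in CD8 T cells, 2 of 9 substrates and clients rose with PancVAX and 0 fell, where 11.6% of all genes were called (median -0.01, all genes 0.01). They were the granzymes *Gzmk* (1.13 ± 0.10) and *Gzmb* (0.95 ± 0.13), proteases that cathepsin C activates. Of 8 inhibitors 1 fell and 0 rose (median -0.26): *Cst7*, an inhibitor of cathepsin C in cytotoxic cells, at 269 against 442 CPM (-0.79 ± 0.09). Of 3 other cathepsins 1 rose, the aspartic protease *Ctse*, at 8.80 against 4.74 CPM (0.82 ± 0.17). edgeR called 0 of 7 processing and sorting genes and 0 of 11 lysosomal membrane and proton pump genes (4 of each with an unadjusted p below 0.05). It called 0 of 4 lysosomal regulators (0 with an unadjusted p below 0.05). Of all 10902 genes tested in this gate, 3856 had an unadjusted p below 0.05.

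For each antibody, 4 pools with it were compared with 4 without. By edgeR 0 of 47 member tests were called for Anti-PD-1 (5 with an unadjusted p below 0.05, 0.142% of all tests called) and 0 of 47 for Anti-CTLA-4 (4 with an unadjusted p below 0.05, 0.00364%), and DESeq2 called 0 for each. For Anti-PD-1 the share of genes called was 0.019% in the dendritic, 0.0492% in the tumor and 0% in the macrophage, neutrophil and CD8 T gates. For Anti-CTLA-4 it was 0.019% in the dendritic, 0.00983% in the tumor and 0% in the other gates. *Ctsk* in the stromal gate was at 213 CPM in Isotype Control, 102 with Anti-CTLA-4, 35.0 with Anti-PD-1 and 21.6 with both. With PancVAX it was at 82.7, with PancVAX + Anti-CTLA-4 at 106, with PancVAX + Anti-PD-1 at 143 and with all agents at 38.8. Of the pools given Anti-PD-1, 3 were the lowest of the 8, and PancVAX + Anti-PD-1 was above all but Isotype Control. The log2 fold change with Anti-PD-1 was -1.32 ± 0.42 (edgeR adjusted p = 0.26, 0.903% of genes called). Of the 18 alternatives it was called only without the PancVAX + Anti-PD-1 pool (-2.04), without a filter on low counts (-1.29) and in whole-tumor libraries alone (-1.94). Cells of no gate held 136 *Ctsk* UMIs, 93 of them in the Anti-PD-1 pool (17.3 CPM, against a median of 0.614 over pools). In the stromal gate the 10 stromal markers summed to 4973 to 16834 CPM over pools. The part of the make-up of the stromal gate in *Ctsk* was not tested. Members had log2 fold changes with Anti-PD-1 from -0.04 to 0.36 in the macrophage (9 members), -0.30 to 0.23 in the dendritic (7), -0.18 to 0.55 in the neutrophil (8), -0.30 to 0.24 in the CD8 T (8), -0.66 to 0.55 in the tumor (7) and -1.32 to 0.82 in the stromal gate (8). With Anti-CTLA-4 they ran from -1.35 to 0.20, -0.36 to 0.12, -0.25 to 0.20, -0.31 to 0.55, -0.51 to 0.30 and -0.97 to 0.29 in the same gates.

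Percoll and whole-tumor libraries, which were also separate sequencing batches, were compared over the 8 treatments with treatment as a block. Of 47 member tests 4 were called, against 3.65% of all tests. None of the 4 was in the macrophage (3.36% of genes called), dendritic (0.977%), stromal (0.218%) or tumor gate (1.08%). In neutrophils (9.16% of genes called) *Ctsl* was at 232 to 283 CPM in Percoll and 101 to 202 in whole-tumor libraries, and *Ctsb* at 368 to 499 and 260.4 to 354. Neither overlapped, and Percoll was the higher in 8 of 8 treatments. The log2 fold changes were 0.82 ± 0.10 (edgeR adjusted p = 1.5e-05) and 0.51 ± 0.08 (edgeR adjusted p = 1.4e-04). Without upper limits on genes and UMIs they were 0.33 and 0.45, and neither was called. Members not called ran from 0.02 to 1.15 in the macrophage (9 members), -0.07 to 0.63 in the dendritic (7), -0.77 to 0.26 in the stromal (8), -0.23 to 0.36 in the tumor (7), -0.06 to 0.21 in the neutrophil (6) and -0.30 to 0.25 in the CD8 T gate (6).

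**Figure D4:**
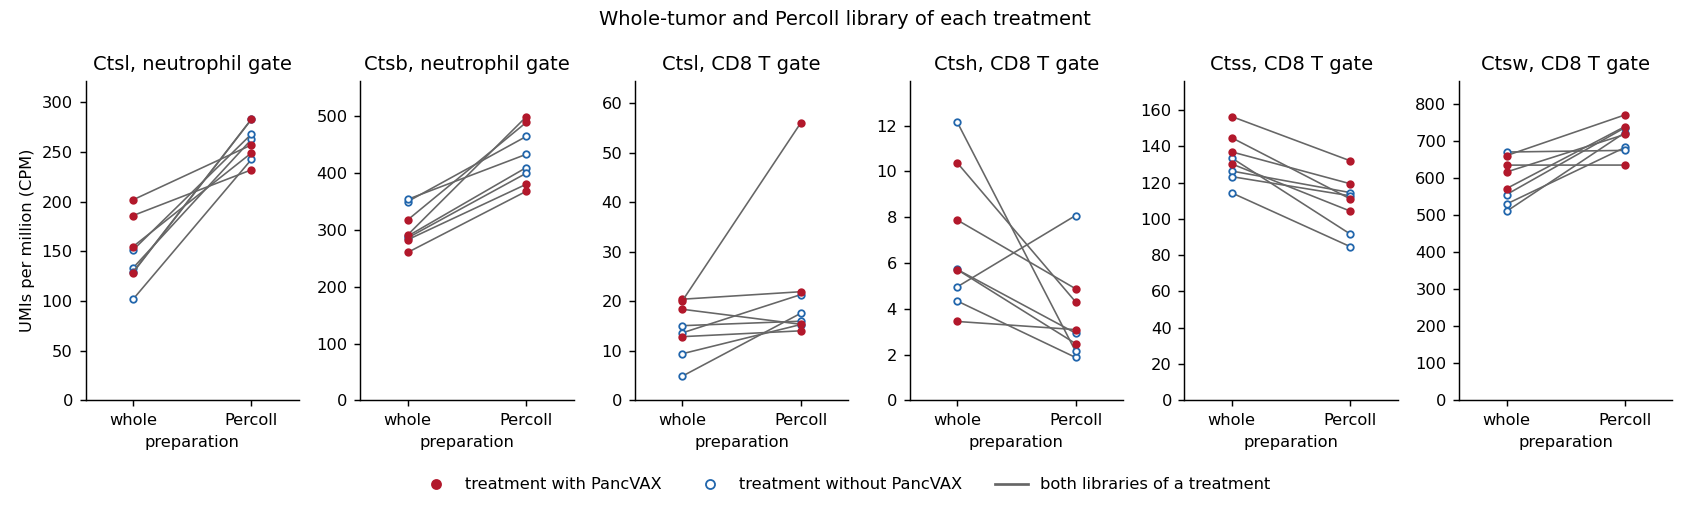
Whole-tumor and Percoll library of each treatment joined by a line, in CPM (linear axes from 0), with filled points for treatments with PancVAX and open points for those without. *Ctsl* and *Ctsb* in neutrophils are higher with Percoll in 8 of 8 treatments, and *Ctsl* in CD8 T cells reaches 56.1 CPM in 1 Percoll library, that of PancVAX + Anti-PD-1.

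In CD8 T cells (5.51% of genes called) *Ctsl* was at 22.2 ± 14.0 CPM in Percoll and 14.3 ± 5.39 in whole-tumor libraries (0.60 ± 0.18, edgeR adjusted p = 0.019), and without the libraries of PancVAX + Anti-PD-1 the difference was 0.31 and not called. *Ctsh* was at 3.72 ± 2.04 against 6.82 ± 3.07 (-0.76 ± 0.26, edgeR adjusted p = 0.043, called in 6 of 16 alternatives). *Lyz2* (-0.82 ± 0.20), *Apoe* (-0.78 ± 0.14) and *Pf4* (-0.93 ± 0.30) fell with Percoll too. The macrophage markers summed to 55.5 to 139 CPM against 103 to 196, which overlap. The part of macrophage RNA in the *Ctsh* difference was not tested. *Ctss* had -0.30 ± 0.06, lower in 8 of 8 treatments. *Ctsw* had 0.25 ± 0.05 and *Ctsb* 0.24 ± 0.04, each higher in 8 of 8, and *Ctsd* 0.15 ± 0.05, higher in 7 of 8. These were short of the size.

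In neutrophils 4 partner genes were called higher with Percoll: *M6pr*, a receptor that sorts enzymes to the lysosome (0.75 ± 0.09), *Cstb*, a cytosolic cathepsin inhibitor (0.65 ± 0.09), *Atp6v1h* of the proton pump (0.63 ± 0.14) and *Gzmb* (1.11 ± 0.32). They were 1 of 8 processing and sorting genes, 1 of 7 inhibitors, 1 of 11 membrane genes and 1 of 9 substrates and clients, with 0 lower, where 9.16% of all genes were called. The medians of these lists were -0.08, 0.06, 0.28 and -0.32 (-0.03 over all genes). *Gzmb*, a granzyme of CD8 T cells, was at 2.99% of its CD8 T level in Percoll and 1.42% in whole-tumor libraries, and the T cell markers at 1.17% to 4.36% and 1.31% to 3.72%. The T cell markers summed to 2.28% and 1.99% of their CD8 T level, and the part of CD8 T cell RNA in the *Gzmb* difference was not tested. The macrophage markers in the neutrophil gate summed to 327 to 624 CPM in Percoll and 484 to 837 in whole-tumor libraries, and *Siglecf* cells were 63.3% and 62.4% of both neutrophil sub-gates.

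The genes most like each member were found by Pearson correlation of log2 CPM over the 48 sums of a pool and a gate, among 5770 genes. These sums share libraries and fall into 6 gates, so the values describe the pattern over gates. *Ctsb* was most like *Itm2b* (0.98), *Ctsc* like *Abhd12* (0.93), *Ctsd* like *Tmem50a* (0.95), *Ctsh* like *Lacc1* (0.94), *Ctsl* like *Rhob* (0.97) and *Ctsz* like *Lmo2* (0.96). *Ctss* was most like *Cd68* (0.96), a macrophage gate marker. *Ctsk* was most like *Cd248*, a gene of fibroblasts and pericytes (0.94). *Ctsw* was most like *Cd3d*, a chain of the T cell receptor complex and a T gate marker (0.97).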

How the data were processed

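Single-cell RNA-seq was read from 1 matrix of raw UMI counts per gene and barcode, which the authors deposited after alignment and counting with Cell Ranger 4.0.0 (mm10, per the submitters' processing notes) from a 5′ 10x kit. Seurat is named there without a version. Barcodes were assigned to libraries by their suffix, matched to the library number in the labels. T cell receptor tables were not used. The 9 members and all gene lists were chosen with earlier results of these data known.

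Barcodes with 200 to 3000 genes, 1000 to 10000 UMIs, under 10% mitochondrial UMIs and no hemoglobin UMI were kept. No doublet caller was run. A cell entered a gate with at least 3 markers of its list detected and at least 2 more than of every other list, and 13953 cells entered none. C1q-high cells had at least 10 UMIs of *C1qa*, *C1qb* and *C1qc* and no *Ccr2* UMI, and *Ccr2*-positive cells had under 3. Cells are not replicates: UMIs were summed per gate and pool, and pools under 10 cells of a gate were left out. Mice were pooled within a treatment, so no p-value measures the spread between mice. Those of the agents measure the spread between pools, 1 per treatment, in a fit without terms for combinations of agents. Those between gates, sub-gates or preparations measure the spread of such differences over pools or treatments. The study tested cells with MAST, and pools were tested here.

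Sums were tested with edgeR 4.0.16 (filterByExpr, TMM, quasi-likelihood) in R 4.3.3 with limma 3.58.1, with Benjamini-Hochberg adjustment over all genes of a fit. DESeq2 1.42.0 was an alternative. SE is the size of the log2 fold change over the square root of F. Tables were made with pandas 2.3.3 and numpy 2.4.6 and figures with matplotlib 3.10.9, in Python 3.11.15. The fits were tested on simulated data. Percoll and whole-tumor libraries of a treatment are paired by their label and were fitted with treatment as a replicate block. No pairing applies to the tests of the agents, where each treatment is 1 pool.

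Libraries held 77132398 to 176233225 UMIs, which bound the precision, and 3 UMIs is the floor for a count of 0. Alternatives were DESeq2, no filter on low counts, stricter gates, no upper limits on genes and UMIs, barcodes with hemoglobin UMIs kept, the 16 libraries with preparation as a covariate, each preparation alone, fits without the block and each treatment left out. Chosen after seeing the data were scaling by library totals, PancVAX fitted within sub-gates, and PancVAX by gate. Every member that passed the filter was tested in every comparison, and those not described singly are given by their counts or range. Of each partner list at most 4 called genes of lowest p are named, and the gene most like each member by correlation among genes with a mean of at least 20 CPM.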

Additional observations from a re-analysis of the deposited data

Results flagged for a closer look

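In the stromal gate, *Ctsc* in the PancVAX pool was at 88.2 CPM (32 UMIs), far below the other 3 pools given PancVAX at 186 to 207 CPM. In the same gate, *Ctsl* in the PancVAX + Anti-CTLA-4 pool was at 907 CPM (377 UMIs), above the others given PancVAX at 622 to 662 CPM. Both stood apart from their group by Dixon's test on the log2(CPM + 1) scale, where the gap to the nearest pool over the range was 0.874 for *Ctsc* and 0.835 for *Ctsl*, past the critical value. On the CPM scale the ratios were 0.822, short of that value, and 0.860. On the log2 scale 2 of 93 groups of 4 pools were marked so, where chance marks about 1 in 20. The stromal gate had as few as 59 cells in a pool.

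The PancVAX effect on *Ctsc* differed between gates by an interaction term fitted over all genes with edgeR. It was 0.71 ± 0.19 higher on the log2 scale in the stromal than in the CD8 T gate (adjusted p = 0.039) and 0.81 ± 0.18 higher in the tumor than in the CD8 T gate (adjusted p = 0.0066). In each gate alone the PancVAX log2 fold change of *Ctsc* was 0.24 ± 0.22 (stromal), 0.36 ± 0.17 (tumor) and -0.47 ± 0.06 (CD8 T). The stromal gate of the PancVAX pool is the one with the low *Ctsc* value above.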

How the results depend on the processing

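PancVAX called 1 of 47 member tests. DESeq2 called 2, no filter on low counts 3, no upper limits on genes and UMIs 0, the 16 libraries 2 and Percoll libraries alone 2, and leaving out 1 treatment gave 0 to 3 (0 without the PancVAX + Anti-CTLA-4 pool, 3 without the PancVAX pool). Anti-PD-1 called 0, against 1 with no filter, 1 in whole-tumor libraries alone and 0 to 1 without 1 treatment (1 without PancVAX + Anti-PD-1). Anti-CTLA-4 called 0, against 1 with no filter. Percoll called 4, against 2 with DESeq2, 2 with markers of other lists at most 0.5 of the own, 0 with no upper limits, 2 with no replicate block, and 2 to 4 without 1 treatment (2 without PancVAX, PancVAX + Anti-CTLA-4 or all agents). Neighboring gates called 28 of 45, with 26 to 30 without 1 treatment, and sub-gates 22 of 40, with 20 to 23. With no replicate block 27 and 19 were called. Without upper limits *Ctsk* macrophage minus neutrophil was 3.70 (otherwise -0.53 ± 0.67) and *Ctsl* dendritic minus CD8 T -0.10 (otherwise 0.96 ± 0.21). With library totals *Ctsb* neutrophil minus tumor was -0.0492 (otherwise 0.53 ± 0.08). The cause of these was not tested. Over all single members and alternatives, 878 values called stayed called in the same direction, 56 lost the call and 36 gained one. Apart from these, 2 values that were called and 1 that was not reversed their sign. Of all genes called between gates, 42.6% to 68.5% were higher in the first gate of a pair under TMM and 27.1% to 80.7% with library totals, and between sub-gates 42.2% to 63.7% and 37.6% to 80.3%. Among the 6 gates depth limits *Ctsk* outside the stromal gate (1 to 64 UMIs a gate) and *Ctsw* outside the CD8 T gate (10 to 288).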
